A study of Mus musculus with 6 samples.

Results

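To examine whether the DNA methylation machinery of the early cortex changed in abundance when the RNA-binding protein Ybx1 was deleted, the 9 genes Dnmt1, Dnmt3a, Dnmt3b, Uhrf1, Tet1, Tet2, Tet3, Mbd2 and Mbd3 were read from a table of 17348 genes. They were chosen by symbol for their function, with earlier results of these data known. All 9 were found, and all 9 passed the filter on low counts that 13340 genes passed. RNA came from the cortex of mouse embryos at midgestation (E13.5), with 3 libraries of wild-type embryos (WT) and 3 of conditional Ybx1 knockouts (cKO). The cKO embryos carried Nestin-Cre and 2 floxed Ybx1 alleles (Ybx1 fl/fl), so the deletion takes place in neural progenitors and their progeny. The labels give WT for the other embryos, and the study's methods call them control littermates, elsewhere in the study Ybx1 fl/fl without Cre. The alleles were made on C57BL/6J. Sequencing was of bulk tissue, in which fewer cells of a type and less RNA per cell cannot be told apart, and whether each library is 1 embryo or a pool is not given in the sources used here.

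In mammals a methyl group is placed on cytosine, mostly where it precedes a guanine. Dnmt3a and Dnmt3b are de novo methyltransferases that set the mark on unmethylated DNA, while Dnmt1 copies it to the new strand after replication, guided there by Uhrf1, which binds half-methylated sites. The Tet enzymes oxidise methylcytosine to hydroxymethylcytosine, the first step of its removal, and proteins of the methyl-CpG-binding domain family read the mark or join the repressive NuRD complex. In the developing cortex maintenance methylation serves dividing progenitors, Dnmt3a is made in progenitors and neurons, and hydroxymethylcytosine builds up in neurons.

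The windows of 250 bases upstream of the annotated starts in RefSeq (GRCm38.p6) were looked up for these genes, and 8 of the 9 had an entry, with 13 windows in all. The number of CpG dinucleotides, the target of the enzymes, ran from 2 to 51 per window with a median of 17.0, and 9 of the 13 held 15 or more. Of 32851 such windows over all genes 27.3% held 15 or more, with a median of 6.0. The windows were also searched on both strands for the words TTTCCCGC, TTTGGCGC, TTTCGCGC and TTTGCCGC, the letters of sites bound by E2F factors, which switch on genes of DNA replication. A match occurred in 2 of the 13 windows, 1 at Dnmt1 and 1 at Uhrf1, against 1.86% of all windows. These are the members that act at the replication fork, and their stretches are shown for that reason, 5′ to 3′ on the strand of the gene with the matched letters in capitals (those of Dnmt1 are the reverse complement of TTTCGCGC).
Dnmt1, minus strand, chr9:20952824-20952853: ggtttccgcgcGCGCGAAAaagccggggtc
Uhrf1, plus strand, chr17:56304117-56304146: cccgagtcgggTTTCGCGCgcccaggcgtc
The Dnmt1 stretch lies in the 5′ untranslated region of the transcript Dnmt1-201 and upstream of another annotated start, 219 bases from it. The Uhrf1 stretch overlaps no annotated Uhrf1 exon and lies 185 bases before a start. The whole Uhrf1 window, with 30 CpG dinucleotides and a GC content of 69.6%, is printed as an example of a CpG-rich promoter of these genes, with the matched letters again in capitals.
Uhrf1, plus strand, chr17:56304063-56304312: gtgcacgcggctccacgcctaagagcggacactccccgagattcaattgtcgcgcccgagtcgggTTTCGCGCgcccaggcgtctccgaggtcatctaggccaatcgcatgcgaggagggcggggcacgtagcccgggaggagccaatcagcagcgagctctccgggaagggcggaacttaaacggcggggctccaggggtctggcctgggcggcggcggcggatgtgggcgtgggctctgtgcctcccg
A match of letters is a description and not a bound site, and methylation itself was not measured in these libraries.

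The libraries held between 15907491 and 16282929 estimated counts, of which the 9 genes took 0.123% to 0.147%. Values per library are CPM, counts scaled to a common library size by edgeR's TMM method. Intervals on single libraries cover counting error only and not the spread between libraries. They are too narrow where PCR copies of a molecule were counted as separate reads. A list of 7 cortex identity genes, such as Emx1 and Emx2, was detected in all 6 libraries, with summed levels of 2274.8 to 2990.6 TPM (a level per transcript length with an equal total for every library). Ybx1 itself was at 1021 and 1220.0 CPM in WT replicates 1 and 3 and between 83.1 and 147 in cKO, whereas the library labelled WT replicate 2 gave 528, partly against its label. In cKO replicate 3 the summed TPM of 6 skin genes was 278.79 against at most 7.32 elsewhere. The rise lay in Krt5, Krt14, Krt15 and Trp63. Krt10 was not raised there (4.62 TPM, against 4.69 to 6.2 elsewhere), and Krt1 hardly (1.47, against 1.02 to 1.35). The summed TPM of 7 genes of connective tissue and meninges was 287.06 in cKO replicate 3 against at most 7.55 elsewhere. Foxc1, a gene of that list, was not raised there (0.62 TPM, against 0.47 to 1.5 elsewhere). Which tissue these transcripts came from was not tested. Ventral forebrain markers (8 genes) summed to 221.33 to 231.61 TPM in cKO and 92.73 to 144.75 in WT. Of these sums Sst alone gave 119.93 to 135.94 TPM in cKO and 48.86 to 64.61 in WT. In TPM Gad1, Dlx5 and Nkx2-1 also did not overlap between genotypes, while Dlx1, Dlx2, Gad2 and Lhx6 did. For their Ybx1, skin and connective tissue values, cKO replicate 3 and the library labelled WT replicate 2 were also left out together. The calls, fold changes, ratios and order of levels were computed again without them. The ventral forebrain sums separate all cKO from all WT libraries, so leaving these libraries out does not remove that difference. The part of these values in any result was not tested.

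None of the 9 genes changed past the threshold. By edgeR's quasi-likelihood test, 0 of the 9 had an adjusted p-value under 0.05, each standing at 0.99995, and the same test called 0.0% of the 13340 genes. Ybx1 itself, the deleted gene, was thus not called either. An absence of adjusted calls therefore says little about the 9 or about other genes. At an unadjusted p-value under 0.05, 0 of the 9 were called, against 3.57% of all genes, and 0 of the 9 had CPM values that did not overlap between genotypes, against 9.04%. With both of those libraries left out the counts were again 0 adjusted and 0 unadjusted, against 2 genes adjusted and 1.84% unadjusted over all genes tested. DESeq2 also gave 0 and 0, against 4 genes adjusted and 2.55% unadjusted. Log2 fold changes of cKO over WT were positive for 3 and negative for 6 genes, with a median of -0.04 against 0.00 over all genes tested. The median size of a log2 fold change, sign aside, was 0.07 for the 9 and 0.08 for all. The 95% interval of each of the 9 lay within 1.5-fold in either direction. A p-value above the threshold does not show that the genotypes are the same, and these intervals give the sizes still compatible with the data.

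**Figure D1:**
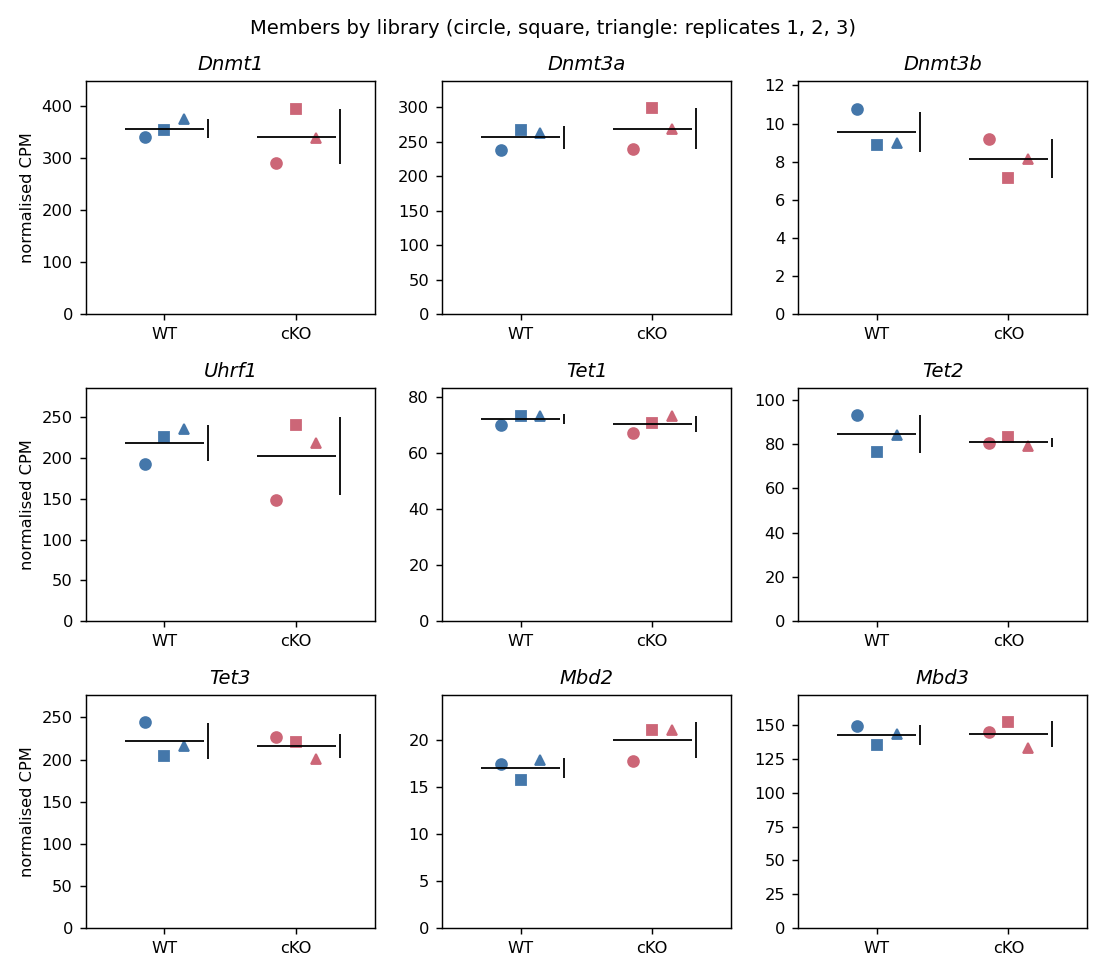
Each panel shows 1 gene, with normalised CPM on the vertical axis from 0, WT and cKO on the horizontal axis, symbols for replicates 1, 2 and 3 a horizontal bar at the group mean and a vertical bar of 1 SD to each side. WT and cKO overlap in every panel, most narrowly for Mbd2 (17.81 CPM in the highest WT and 17.78 in the lowest cKO library), and cKO replicate 1 is lowest for Dnmt1 and Uhrf1.

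**Figure D2:**
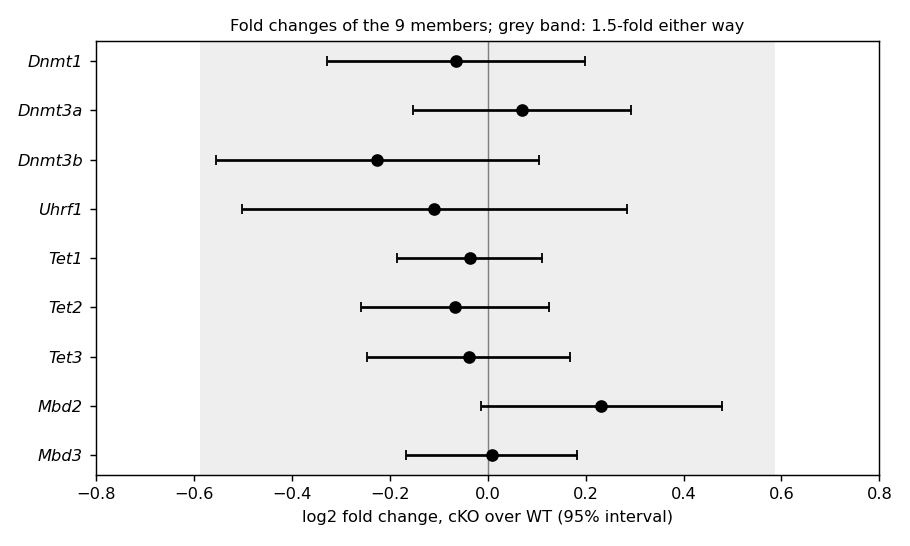
Points are log2 fold changes of cKO over WT by edgeR for the 9 genes, with 95% intervals, and the grey band marks 1.5-fold in either direction. Every interval includes 0 and lies inside the band, from Dnmt3b at -0.22 to Mbd2 at 0.23.

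The maintenance pair came first among the writers. Dnmt1 (Entrez gene 13433, chromosome 9, 20907206 to 20959888 in GRCm38.p6) gave 339.6, 353 and 375 CPM in WT and 290.2, 394 and 338 in cKO, in the order of the replicate numbers, as are all such values. The lowest and the highest value both belonged to cKO, and WT lay between them. The means were 356 ± 17.9 CPM in WT and 341 ± 52.0 in cKO (SD, n = 3 each), a difference (cKO minus WT) of -0.06 log2 units (standard error, SE, 0.11, interval -0.33 to 0.20, edgeR adjusted p-value 0.99995). Counts behind these values were 4650 to 6281 per library. The spread within cKO was 15.3% of the mean against 5.03% in WT.

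Uhrf1 (Entrez gene 18140, chromosome 17, 56303337 to 56323486) gave 193, 225 and 236 CPM in WT and 148, 240.2 and 219 in cKO. It varied more between libraries than Dnmt1, with 1.62 times as much in the highest library as in the lowest. The lowest and the highest were again cKO replicates 1 and 2. Means were 218 ± 22.3 and 202 ± 48.0 CPM (SD, n = 3 each), a difference of -0.11 log2 units (SE 0.17, interval -0.50 to 0.28). For both genes the sign rested on cKO replicate 1, without which the log2 fold changes were 0.047 for Dnmt1 and 0.079 for Uhrf1.

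Of the de novo enzymes, Dnmt3a (Entrez gene 13435, chromosome 12, 3801559 to 3914443) was well expressed, with 238, 268 and 263 CPM in WT and 240.1, 299 and 269 in cKO. Replicate 1 was the lowest of each genotype and cKO replicate 2 the highest of all. Means were 256 ± 16.1 and 269 ± 29.4 CPM (SD, n = 3 each), a difference of 0.07 log2 units (SE 0.10, interval -0.15 to 0.29), and it turned to -0.012 without cKO replicate 2.

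Dnmt3b (Entrez gene 13436, chromosome 2, 153649411 to 153687730), whose main activity is in the early embryo, was the least abundant of the 9. WT libraries gave 10.7, 8.86 and 9.0 CPM and cKO libraries 9.17, 7.15 and 8.14, from 114 to 171 counts. At these counts the exact Poisson interval alone spanned 9.19 to 12.5 CPM in WT replicate 1 and 5.90 to 8.59 in cKO replicate 2. The genotypes overlapped through cKO replicate 1, which lay above WT replicates 2 and 3. Means were 9.53 ± 1.05 and 8.16 ± 1.01 CPM (SD, n = 3 each), a difference of -0.22 log2 units (SE 0.14, interval -0.56 to 0.11, unadjusted p-value 0.155 in the edgeR model). The value was negative in all 12 alternative fits, from -0.31 to -0.13, and called in none of them.

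Among the erasers Tet1 (Entrez gene 52463, chromosome 10, 62804570 to 62887469) had the smallest ratio of the highest to the lowest library among the 9. It gave 69.98, 73.2 and 73.1 CPM in WT and 67.1, 70.6 and 73.1 in cKO. The 6 values lay within a narrow band, with means of 72.1 ± 1.84 and 70.3 ± 2.97 CPM (SD, n = 3 each) and a difference of -0.04 log2 units (SE 0.06, interval -0.18 to 0.11).

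Tet2 (Entrez gene 214133, chromosome 3, 133463677 to 133545136), which lacks the DNA-binding CXXC domain of its relatives, gave 93.3, 76.4 and 84.1 CPM in WT and 80.3, 83.1 and 79.0 in cKO. The cKO values all lay inside the range of WT. Means were 84.6 ± 8.45 and 80.8 ± 2.05 CPM (SD, n = 3 each), a difference of -0.07 log2 units (SE 0.08, interval -0.26 to 0.12). Tet3 (Entrez gene 194388, chromosome 6, 83362373 to 83457208), known for oxidising the paternal genome in the zygote and for its expression in the brain, gave 245, 204 and 216 CPM in WT and 227, 220.4 and 200.5 in cKO. Replicate 1 was the highest of each genotype. Means were 222 ± 21.0 and 216 ± 13.9 CPM (SD, n = 3 each), a difference of -0.04 log2 units (SE 0.09, interval -0.25 to 0.17). The signs of Tet2 and Tet3 both turned without WT replicate 1, to 0.013 and 0.043.

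Of the readers, Mbd2 (Entrez gene 17191, chromosome 18), which binds methylated DNA and brings NuRD to it, came nearest to a difference. WT libraries gave 17.40, 15.74 and 17.81 CPM and cKO libraries 17.78, 21.0 and 21.1, from 254 to 349 counts. Replicates 2 and 3 of cKO lay above every WT library, and cKO replicate 1 lay just under WT replicate 3. Means were 17.0 ± 1.1 and 19.95 ± 1.88 CPM (SD, n = 3 each), a fold of 1.17 (interval 0.991 to 1.39) and a difference of 0.23 log2 units (SE 0.11, interval -0.01 to 0.48). The unadjusted edgeR p-value was 0.0603 and the adjusted one 0.99995. Without cKO replicate 1 the log2 fold change was 0.32 and the unadjusted p-value 0.0173 (edgeR), and with cKO replicate 3 and the library labelled WT replicate 2 both left out it was 0.14. In TPM, which also depends on the transcript length assigned, Mbd2 was at 28.99, 23.91 and 28.03 in WT and 30.43, 32.18 and 32.36 in cKO, and the genotypes did not overlap. The difference was positive in all 12 alternative fits, and the lowest adjusted p-value among them was 0.614.

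Mbd3 (Entrez gene 17192, chromosome 10, 80392539 to 80399531), the NuRD subunit that takes the place of Mbd2 in the complex and binds methylated DNA weakly, showed the smallest difference of the 9. It gave 149, 135 and 143 CPM in WT and 145, 152 and 133 in cKO. Means were 143 ± 7.05 and 143 ± 9.58 CPM (SD, n = 3 each), a difference of 0.01 log2 units (SE 0.08, interval -0.17 to 0.18).

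Levels between the genes were compared in TPM. The order over all 6 libraries was Mbd3 (234 ± 16.8 TPM, SD, n = 6), Dnmt1 (143.5 ± 11.6), Uhrf1 (135.4 ± 19.0), Dnmt3a (56.2 ± 3.38), Tet3 (42.5 ± 4.49), Mbd2 (29.3 ± 3.15), Tet2 (19.5 ± 1.94), Tet1 (10.7 ± 0.314) and Dnmt3b (5.12 ± 1.0). Of the 8 pairs of neighbours in this order, 7 pointed the same way in 6 of 6 libraries, each with an exact two-sided sign-flip permutation p-value of 0.031, the smallest that 6 libraries allow (0.0357 adjusted over the 8 pairs). The order was set from the same 6 libraries, both genotypes together. These p-values therefore describe how steady each step was and are no independent test of the order. The exception was Dnmt1 and Uhrf1. Dnmt1 was the higher in 4 of 6 libraries, with a mean ratio of 1.07 (range 0.989 to 1.25) and an exact p-value of 0.125, so their order was not resolved. Uhrf1 was the higher in the library labelled WT replicate 2 (140.5 against 140.33 TPM) and in cKO replicate 3 (141.52 against 139.92). With both left out, 8 of the 8 pairs pointed the same way in every remaining library. Uhrf1 stood at 2.39 times the TPM of Dnmt3a, the next writer, and Tet1 at 2.12 times that of Dnmt3b. Between the closest resolved neighbours, Dnmt3a and Tet3, the ratio ran from 1.06 to 1.5.

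**Figure D3:**
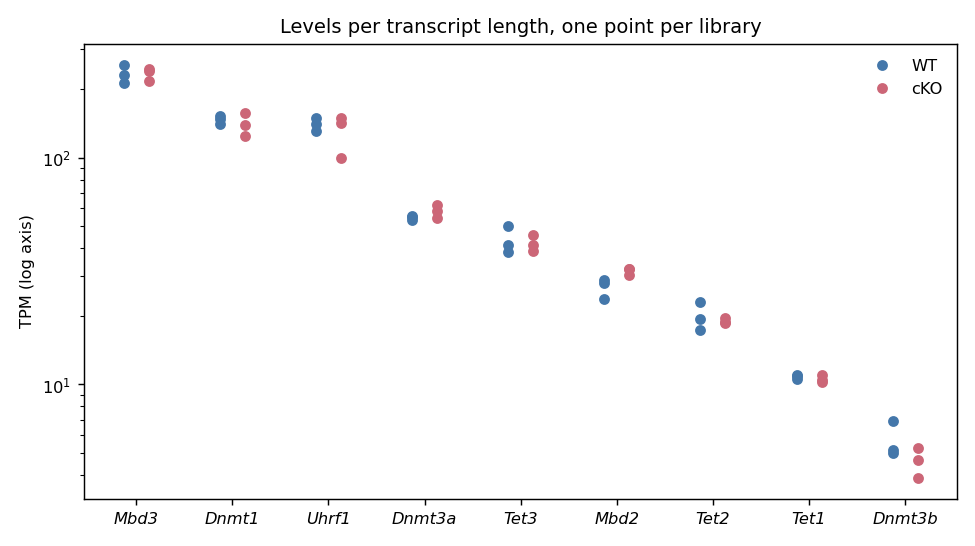
TPM per library on a log axis for the 9 genes in order of mean level, with WT and cKO side by side. Mbd3 at 234 TPM is highest and Dnmt3b at 5.12 TPM lowest, and the points of Dnmt1 and Uhrf1 overlap.

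Within each family the same gene led in every library. Tet3 supplied 56.6% to 60.3% of the summed TPM of the 3 Tet genes, Tet2 25.9% to 27.5% and Tet1 13.1% to 16.1%. Of the summed TPM of the 3 Dnmt genes, Dnmt1 supplied 67.7% to 71.7% and Dnmt3b 1.73% to 3.33%. The Dnmt3a share was 25.6%, 27.4% and 25.9% in WT and 29.5%, 27.8% and 28.7% in cKO, so the genotypes did not overlap. That split was noticed after the values were seen, and the exact two-sided permutation test gave 0.1, the smallest p-value it can give, and 0.6 after adjustment over the 6 shares.

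To ask whether partners within a family shifted against each other, 4 ratios of TPM were compared between genotypes by exact two-sided permutation tests, which with 3 against 3 libraries cannot go below 0.1. The ratio of Uhrf1 to Dnmt1 was 0.893, 1.0 and 0.984 in WT and 0.799, 0.954 and 1.01 in cKO (log2 difference -0.06, exact p-value 0.7). The ratio of Dnmt3b to Dnmt3a was 0.130, 0.0934 and 0.0907 in WT and 0.0965, 0.0622 and 0.0800 in cKO (log2 difference -0.40, exact p-value 0.3), and the difference was -0.23 without WT replicate 1 and -0.23 without cKO replicate 2. Tet1 to Tet3 stayed between 0.221 and 0.285 in all libraries (log2 difference 0.0015, exact p-value 1.0). The ratio of Mbd3 to Mbd2, the alternative subunits of NuRD, was 8.86, 8.89 and 8.21 in WT and 8.05, 7.47 and 6.75 in cKO, and all cKO values were lower than all WT values. Its log2 difference was -0.22, with the smallest p-value the exact test can give, 0.1, and 0.4 after adjustment over the 4 ratios, and it was -0.14 with cKO replicate 3 and the library labelled WT replicate 2 both left out. The adjusted values of the other 3 ratios were 0.6 or higher, so none passed.

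The libraries differed in markers of dividing cells, and several members were lowest or highest in the same libraries as those markers. Summed over 12 such genes, among them Mki67 and Top2a, levels were 2197.0, 2804.6 and 2716.9 TPM in WT and 2014.4, 2912.9 and 2622.3 in cKO. The lowest sums were those of replicate 1 of each genotype, and Uhrf1 and Dnmt3a were lowest in the same pair of libraries. For 8 neuron markers these libraries were the highest, with 4126.6 TPM in WT replicate 1 and 4424.9 in cKO replicate 1 against 3268.9 to 3678.1 in the other four, and Tet3 was highest in them too. Ranges of the 2 genotypes overlapped for both sums. Whether the mix of dividing cells and neurons has a part in the spread of Dnmt1, Uhrf1 and Dnmt3a was not tested.

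**Figure D4:**
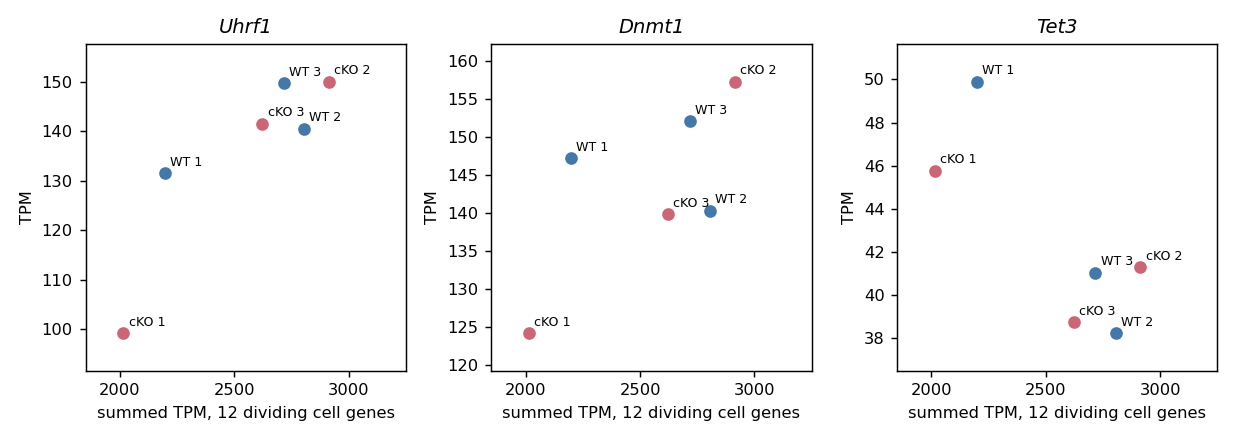
TPM of Uhrf1, Dnmt1 and Tet3 (1 panel each, vertical axes not from 0) against the summed TPM of 12 dividing cell genes on the horizontal axis, 1 named point per library, WT and cKO by colour. In cKO replicate 1, the library with the lowest sum (2014.4 TPM), Uhrf1 is also lowest at 99.26 TPM, and in cKO replicate 2, with the highest sum (2912.9 TPM), it is highest at 149.99.

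The genes whose pattern over the 6 libraries was most like that of 3 writers were found by the root mean square difference of centred log2 CPM. For Dnmt1 they were Peg12 (0.0206 log2 units), Ncapd2 (0.028), a condensin subunit, and Lrrc59 (0.0318). For Uhrf1 they were Cdkn2c (0.0295), an inhibitor of G1 cyclin-dependent kinases, Rad18 (0.0326), a ubiquitin ligase of DNA damage tolerance, and Pole (0.0418), the catalytic subunit of a replicative DNA polymerase. For Dnmt3a they were Pa2g4 (0.0211), Raly (0.0213) and Rad23b (0.0228). Dnmt1 and Uhrf1 were not each other's nearest genes, with a difference of 0.118 log2 units, at which Uhrf1 ranked 1875 for Dnmt1 and Dnmt1 ranked 294 for Uhrf1. The measure counts the size of a swing as well as its direction. Both genes were lowest in cKO replicate 1 and highest in cKO replicate 2. Uhrf1 swung wider, to -0.48 and 0.21 log2 units from its mean, against -0.26 and 0.18 for Dnmt1. These distances rest on 6 shared libraries and are a description.

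The wider pathway was described by 6 lists of partner and target genes, 65 in all, of which 57 were in the table and 50 tested. By edgeR 0 of the 50 had an adjusted p-value under 0.05, and at an unadjusted p-value under 0.05 there was 1 higher and 0 lower in cKO, beside 234 higher and 242 lower over all genes tested. Genotypes did not overlap in CPM for 3 that were higher and 1 that was lower in cKO, near the share of 9.04% over all genes. Of 7 writer cofactors tested, 4 had positive and 3 negative log2 fold changes, with a median of 0.00. Hells, the remodeler that opens chromatin for methylation, gave 105, 155 and 135 CPM in WT and 98.0, 159 and 133 in cKO (log2 fold change -0.02, standard error 0.19). Like Uhrf1 it was lowest in replicate 1 of both genotypes. Uhrf2, the paralog of Uhrf1, was at 0.00 (0.08), and Usp7, a deubiquitinase that stabilises Uhrf1 and Dnmt1, at 0.09 (0.06), with no overlap between genotypes. Pcna, the replication clamp that holds Dnmt1 at the fork, and Mki67, a marker of cycling cells, were at -0.01 (0.19) and -0.17 (0.18).

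Of 14 genes that act after or with the Tet enzymes, 5 had positive and 9 negative log2 fold changes (median -0.03). Gadd45b, a stress gene linked to demethylation by repair, had the lowest unadjusted p-value of the pathway, 0.0322 by edgeR. It was at 0.942, 0.929 and 1.06 CPM in WT and 1.44, 1.32 and 2.35 in cKO, a log2 fold change of 0.80 (standard error 0.31) that rested on 15 to 39 counts per library. Its highest value fell in cKO replicate 3, the library with skin and connective tissue transcripts. Tdg, the glycosylase that excises the oxidised bases, gave 288, 292 and 306 CPM in WT and 261, 279.8 and 270.5 in cKO, with no overlap between genotypes. Its log2 fold change was -0.13 (standard error 0.07, unadjusted edgeR p-value 0.0958).

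Other readers numbered 7, split into 4 positive and 3 negative log2 fold changes with a median of 0.01. Log2 fold changes were 0.02 (standard error 0.08) for Mbd1 and -0.004 (0.083) for Mbd4, which is both reader and glycosylase. Zbtb4, a zinc finger reader, was at 0.19 (0.13). Of 12 NuRD partners, 4 were positive and 8 negative (median -0.03), with Chd3, an ATPase of the complex, at -0.18 (0.12). The 7 genes that supply the methyl donor gave 6 positive and 1 negative value (median 0.07). The last list held 16 germline genes that methylation keeps silent in somatic tissue. Of these 10 were in the table, 5 of them with at most 3 counts in every library. The 3 that could be tested (Ddx4, Tdrd9 and Brdt), already detected in every WT library, had unadjusted edgeR p-values above 0.05. Among the untested, Slc25a31 had 0, 0 and 1 counts in WT and 6, 3 and 3 in cKO, too few to test. The other untested genes in the table overlapped between genotypes.

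The estimated counts and the length-scaled values (FPKM) of a gene together give the transcript length that the authors' estimation assigned to it in each library. It is computed as counts per FPKM, scaled by the library total. The measure was added after the data were seen. For Dnmt3a it was 9948, 9880 and 9883 bases in WT and 9704, 9790 and 9751 in cKO, 1.57% shorter on average and not overlapping, while rounding of FPKM could move it by 0.021%. Among 8952 genes with at least 5 FPKM in every library, 37.7% did not overlap between genotypes, and 4.84% did not overlap and differed by at least 1%. In GENCODE M21 the transcripts Dnmt3a-201, Dnmt3a-218 and Dnmt3a-203 are 9685, 8737 and 5424 bases long. The implied lengths of Dnmt3a, 9704 to 9948 bases, lay above the longest of these in every library. Implied and annotated lengths can therefore not be compared directly. The implied length enters TPM and not CPM, so it stands beside the Dnmt3a share given above, as the spread of 7.23% for Mbd2 stands beside its TPM and the ratio of Mbd3 to Mbd2. It also stands beside the ratio of Dnmt3b to Dnmt3a. The implied length of Dnmt3b was 6.02% longer on average in cKO, and both length differences lower that ratio in TPM. From counts the log2 fold changes were -0.22 for Dnmt3b and 0.07 for Dnmt3a. Dnmt3b varied most, with 3441, 3499 and 3729 bases in WT and 3834, 3777 and 3701 in cKO, a spread of 10.7% in which the genotypes overlapped. The other 6 genes varied by 0.306% to 0.879%. Whether different transcripts were made or the estimation differed between libraries was not tested.

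**Figure D5:**
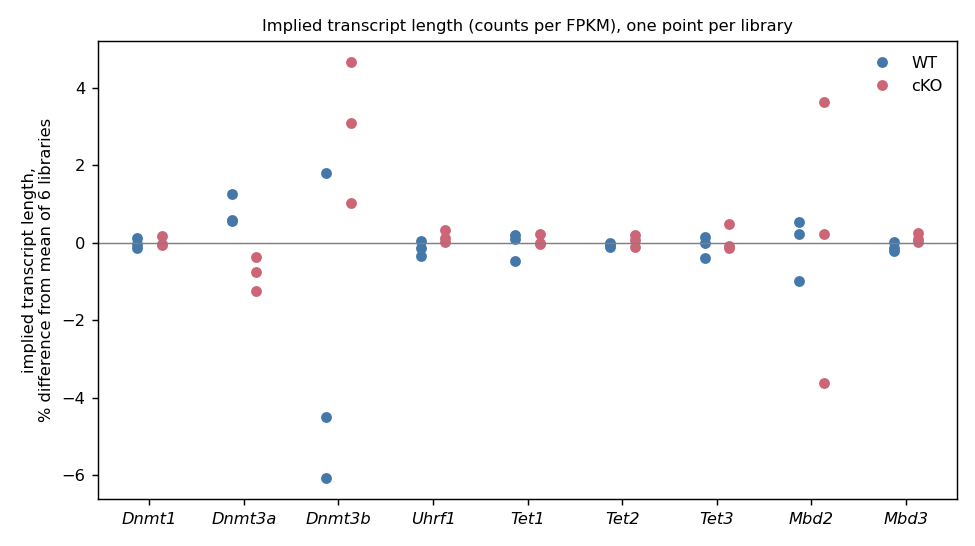
Implied transcript length (counts per FPKM, scaled by the library total) of the 9 genes as a percent difference from the mean of the 6 libraries, 1 point per library, with WT and cKO side by side. Dnmt3a is the gene whose cKO points all lie below its WT points, by 1.57% on average, and Dnmt3b and Mbd2 have the widest spread, 10.7% and 7.23%.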

How the data were processed

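Total RNA of E13.5 cortex was made into mRNA libraries and sequenced by the authors on a DNBSEQ platform. The submitters' processing notes name HISAT2 2.2.1, Bowtie2 2.4.5, RSEM 1.3.1 and the builds GRCm38 and mm10, without roles. The table deposited by the authors holds estimated counts per gene, not normalised for depth, of which 10.9% of the values were not whole (0 among those of the 9 genes). It also holds TPM values that the authors scaled to a common sum and FPKM values that the authors scaled for length and depth. Whether counting used strand is not given in the sources used here, so overlapping and antisense genes are uncertain. The 6 columns of group averages were not used. Groups follow the labelled genotype. The sources used here do not tie libraries to embryos or litters, and p-values measure the spread between these libraries, which may in part be technical. A further 2 genes of the lists are not reported here and are left out of the lists' counts and sums. The 9 genes and all lists were chosen with earlier results of these data known. Named are all 9 genes, a fixed set of partners, the 5 partners of lowest unadjusted p-value, and the 3 genes most like Dnmt1, Uhrf1 and Dnmt3a.

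Counts were rounded. Genes were kept by filterByExpr (minimum count 10, minimum total 15), scaled by TMM and fitted with edgeR 4.0.16 (quasi-likelihood, genotype as the only term, R 4.3.3), with p-values adjusted by the Benjamini-Hochberg method over 13340 genes and a threshold of 0.05. Standard errors are the log2 fold change over the square root of F. No pair of libraries was a duplicate (at most 1.66% of tested genes with equal counts). Alternatives were RLE scaling, no filter, DESeq2 1.42.0, limma 3.58.1 on log2(TPM + 1), a replicate block, each library left out, and 2 libraries left out (for the ratios, the order and the overlap of genotypes, chosen after seeing the data). Marker sums add TPM over each list (endothelium, 43.98 to 67.11; microglia, 22.77 to 37.20; erythroid genes, 4248.1 to 7687.0, overlapping between genotypes).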

Additional observations from a re-analysis of the deposited data

How the results depend on the processing

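No member and no partner gene had an adjusted p-value under 0.05 in any of the 12 alternative fits (RLE scaling, no filter, DESeq2, limma, the replicate block, 6 fits without 1 library and 1 without 2 libraries), in which 0 to 4 of all genes tested did. At an unadjusted p-value under 0.05 the count of members was 0, against 1 with limma on log2(TPM + 1) (Mbd2, 0.0423; 3.11% of all genes) and a range from 0 to 1 with 1 library left out (1.77% to 7.81% of all genes, the highest without cKO replicate 1, where Mbd2 was called). The number whose genotypes did not overlap was 0 in CPM, 1 in TPM (Mbd2; 8.57% of all genes) and from 0 to 3 with 1 library left out (13.7% to 24.8% of all genes), the highest being Dnmt3a, Dnmt3b and Mbd2 without cKO replicate 1. With cKO replicate 3 and the library labelled WT replicate 2 both left out it was 1 (Tet2; 26.9% of all genes). Log2 fold changes near 0 changed sign when 1 library was left out, ranging from -0.18 to 0.047 for Dnmt1, -0.25 to 0.079 for Uhrf1, -0.012 to 0.15 for Dnmt3a, -0.067 to 0.0035 for Tet1, -0.14 to 0.013 for Tet2, -0.094 to 0.043 for Tet3 and -0.039 to 0.057 for Mbd3. Mbd3 stood at -0.029 without the library labelled WT replicate 2, and Tet3 at 0.012 without cKO replicate 3. The log2 difference of Uhrf1 to Dnmt1 ranged from -0.13 to 0.036 and that of Tet1 to Tet3 from -0.095 to 0.072, with -0.00044 in FPKM, -0.083 without cKO replicate 3 and -0.018 without both libraries. Those of Dnmt3b to Dnmt3a and Mbd3 to Mbd2 ranged from -0.55 to -0.23 and from -0.28 to -0.16. The cause was not tested. The order of neighbours held in every library for 7 of 8 pairs each time 1 library was left out. The smallest exact sign-flip p-value was then 0.0625.

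Libraries of 1 number shared their deviations from the genotype means in 2 of 3 pairs (correlations 0.41, 0.31 and -0.02). Of the pairs of unlike number, WT replicate 3 and cKO replicate 2 correlated at 0.26 and the others at -0.43 to 0.02. A block could therefore matter, but the sources used here do not tie the numbers to litters. The values above leave the replicate block out, and it was fitted as an alternative. With the replicate block 0 members had an adjusted and 0 an unadjusted p-value under 0.05, against 2 and 1090 of all genes (8.17%), and Mbd2 stood at 0.23. Dnmt3b and Mbd2 rested on 114 to 349 counts per library, the fewest of the 9 genes.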
